A study of Mus musculus with 57 samples.

Results

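The promoters described here carried H3K27me3 and lacked H3K4me3 in both brain cortex and gastrocnemius muscle of PSAPP mice. They were chosen by the peak calls themselves. A promoter was the window within 1 kb of the most upstream annotated transcription start site (TSS) of an autosomal RefSeq gene. It was included if an H3K27me3 peak overlapped it in at least 8 of 9 cortex and at least 8 of 10 gastrocnemius libraries and no H3K4me3 peak overlapped it in any of the 19 H3K4me3 libraries. Of 24963 autosomal promoters, 889 (3.56%) met the rule. They made up 30.7% of the 2893 promoters with H3K27me3 in both tissues. Another 1227 of the 2893 also had H3K4me3 in at least 8 of 9 and 8 of 10 libraries and are called bivalent below. The other 777 had H3K4me3 in some libraries. The 889 are called H3K4me3-free below. Since H3K27me3 and H3K4me3 calls defined the 889 promoters, their values for these marks are given as a description, without a test.

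PSAPP mice are a model of Alzheimer's disease with a pair of transgenes, for presenilin 1 and for amyloid precursor protein, both in mutant form. All mice carried the transgenes and were 13 months old, and no mouse without them was profiled here. Chromatin from cortex (9 mice) and gastrocnemius (10 mice, 9 of them the same animals) was precipitated with antibodies to H3K4me3, H3K27ac and H3K27me3 and sequenced, which gave 57 libraries. The labels do not give the sex of each library, so sexes were not compared.

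H3K27me3 is deposited by Polycomb repressive complex 2 and accompanies stable gene silencing. H3K4me3 marks promoters that are active or poised, and H3K27ac marks active promoters and enhancers. In embryonic stem cells many CpG-rich promoters of developmental regulators carry H3K27me3 together with H3K4me3, the bivalent state. In differentiated tissues, H3K27me3 without H3K4me3 is found over genes of other lineages.

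Reads in peaks, in units of 1000000 (M), ranged from 9.50 to 18.99 M for H3K4me3 in cortex, 9.16 to 14.98 M for H3K4me3 in gastrocnemius, 3.94 to 21.2 M for H3K27ac in cortex, 15.7 to 27.3 M for H3K27ac in gastrocnemius, 4.52 to 7.32 M for H3K27me3 in cortex and 2.99 to 18.2 M for H3K27me3 in gastrocnemius. A pair of libraries stood apart. Gastrocnemius H3K27me3 replicate 5 had the most H3K27me3 reads, and its autosomal peaks covered 484 Mb, against 176 to 306 Mb in the other gastrocnemius libraries. Cortex H3K27ac replicate 9 had the 3.94 M reads, and every other H3K27ac library at least 14.4 M. Muscle genes marked the tissues: Myh4, Ckm, Tnnt3 and Ttn had an H3K4me3 peak in 10 of 10 gastrocnemius and 0 of 9 cortex libraries, and the neuronal genes Snap25 and Neurod6 in 9 of 9 cortex and 0 of 10 gastrocnemius libraries. Aqp4, an astrocyte gene, had no H3K4me3 peak at its most upstream TSS in either tissue. Rbfox3 had one in 7 cortex and 0 gastrocnemius libraries, and 2 of the 5 neuronal genes examined, Syt1 and Slc17a7, and the glial gene Mbp had one in all 19.

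The promoter sequences of 6 of the 889 genes are shown first because CpG content, which the rule did not use, set these promoters apart from the bivalent ones. They run from low to high CpG content. Each runs 5′ to 3′ from 250 bases before to 50 bases from the TSS (RefSeq, GRCm38.p6, the assembly of mm10), with every CpG dinucleotide in capitals.
Olfr1410, chr1:92607589-92607888, plus strand: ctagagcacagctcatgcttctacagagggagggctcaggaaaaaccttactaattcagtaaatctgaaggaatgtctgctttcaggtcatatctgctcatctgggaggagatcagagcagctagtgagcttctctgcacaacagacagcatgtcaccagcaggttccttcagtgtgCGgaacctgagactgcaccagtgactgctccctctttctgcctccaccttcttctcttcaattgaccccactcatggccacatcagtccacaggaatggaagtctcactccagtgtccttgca
Defb28, chr2:152518005-152518304, plus strand: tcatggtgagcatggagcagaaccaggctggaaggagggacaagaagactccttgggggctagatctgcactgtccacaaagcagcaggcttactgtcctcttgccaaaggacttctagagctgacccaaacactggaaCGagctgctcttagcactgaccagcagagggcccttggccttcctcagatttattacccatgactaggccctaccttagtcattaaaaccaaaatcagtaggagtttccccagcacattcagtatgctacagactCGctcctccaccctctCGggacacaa
Cdh23, chr10:60696441-60696740, minus strand: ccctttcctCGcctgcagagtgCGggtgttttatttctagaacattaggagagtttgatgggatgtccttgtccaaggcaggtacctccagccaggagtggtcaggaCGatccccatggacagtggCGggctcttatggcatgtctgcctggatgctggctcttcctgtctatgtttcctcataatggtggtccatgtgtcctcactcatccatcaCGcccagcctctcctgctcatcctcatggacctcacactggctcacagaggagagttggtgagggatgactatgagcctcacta
Ccl1, chr11:82179763-82180062, minus strand: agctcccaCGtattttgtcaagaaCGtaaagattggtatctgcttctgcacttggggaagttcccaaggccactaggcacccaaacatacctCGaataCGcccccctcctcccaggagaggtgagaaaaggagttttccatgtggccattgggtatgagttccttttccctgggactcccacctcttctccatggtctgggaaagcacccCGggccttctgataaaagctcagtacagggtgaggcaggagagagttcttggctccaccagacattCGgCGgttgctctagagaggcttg
Cxcl2, chr5:90903649-90903948, plus strand: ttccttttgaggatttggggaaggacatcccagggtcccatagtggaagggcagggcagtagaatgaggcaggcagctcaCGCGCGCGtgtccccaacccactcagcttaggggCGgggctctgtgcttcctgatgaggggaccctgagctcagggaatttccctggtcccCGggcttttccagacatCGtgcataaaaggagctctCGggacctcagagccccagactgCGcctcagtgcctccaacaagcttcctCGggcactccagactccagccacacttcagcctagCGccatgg
D7Ertd143e, chr7:3218534-3218833, plus strand: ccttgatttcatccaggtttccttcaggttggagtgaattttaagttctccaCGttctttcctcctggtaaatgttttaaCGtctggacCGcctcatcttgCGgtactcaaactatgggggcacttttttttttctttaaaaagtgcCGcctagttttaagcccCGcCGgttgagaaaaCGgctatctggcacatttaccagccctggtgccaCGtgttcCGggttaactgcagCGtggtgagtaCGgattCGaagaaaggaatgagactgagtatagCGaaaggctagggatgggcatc

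Olfr1410 (an olfactory receptor) held 1 CpG in its 300 bases, Defb28 (a beta-defensin) 3, Cdh23 (a cadherin of hair cell stereocilia) 5, the chemokine genes Ccl1 and Cxcl2 7 and 11, and D7Ertd143e, the host transcript of the Mir290 cluster, 14. The annotated start of D7Ertd143e (3218784) lay 3′ of that of Mir290a (3218626). Its 300 bases thus held the mature miR-290a sequences and may not be the promoter of the cluster. The ratio of observed to expected CpG ran from 0.054 in Olfr1410 to 0.825 in D7Ertd143e. H3K27me3 did not follow this order closely: its mean level in cortex, as reads in the window per 1000000 reads in autosomal peaks (RPM), was 9.71 RPM at Olfr1410, 8.05 RPM at Defb28, 11.1 RPM at Cdh23, 8.87 RPM at Ccl1, 10.4 RPM at Cxcl2 and 10.98 RPM at D7Ertd143e.

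Over all 889 promoters, the median CpG ratio in the 300 bases was 0.22, with quartiles of 0.13 and 0.35. It was 0.69 (0.50 to 0.83) at the 1227 bivalent promoters, 0.13 at the 3223 promoters without any of the marks in any library and 0.53 over all autosomal promoters. The 777 with H3K27me3 in both tissues and H3K4me3 in some libraries lay between, at 0.49, with 37.3% under a ratio of 0.4. The median number of CpGs was 4 at the H3K4me3-free promoters and 20 at the bivalent promoters, and the median GC content 52.3% and 63.7%. A ratio under 0.4 was found at 729 (82.0%) of the H3K4me3-free promoters and at 15.4% of the bivalent ones, and a ratio over 0.6 at 56 (6.30%) and 63.1%. In the 2 kb window the median was 0.22 and 0.61. The rule did not use base composition. Neighbouring promoters can share sequence, so the shares are given without a test.

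**Figure D1:**
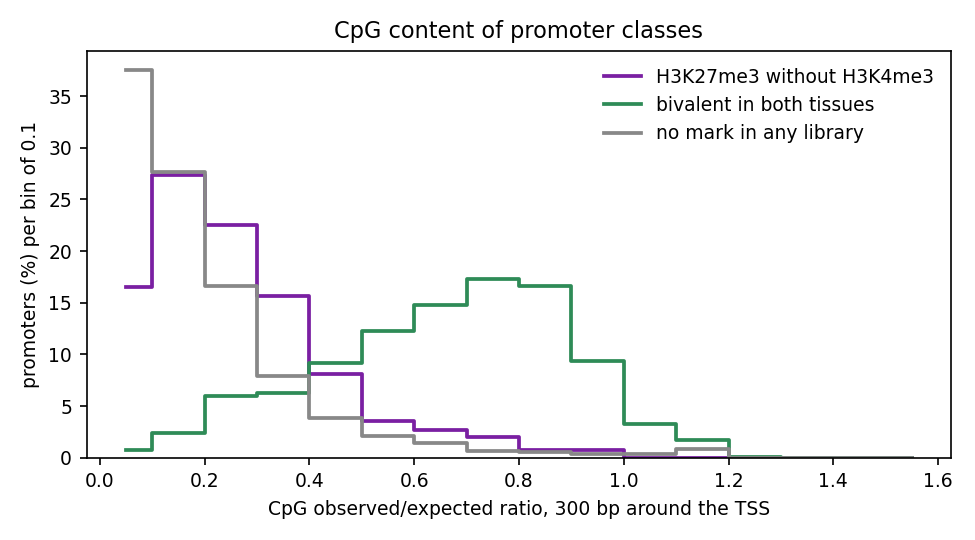
Distribution of the CpG observed/expected ratio in the 300 bp sequence at the TSS (x axis, bins of 0.1) as the share of promoters in each class (y axis, %), for 889 promoters with H3K27me3 and no H3K4me3, 1227 bivalent promoters and 3223 promoters without any mark. The H3K4me3-free promoters peak at low CpG (median 0.22), next to the unmarked promoters (0.13) and apart from the bivalent promoters (0.69).

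A pair of short motifs was searched on both strands of the same 300 bases. GGGCGG, the core of the GC box bound by Sp1 family factors, was present in 171 (19.2%) of the 889 promoters, 67.5% of the bivalent promoters, 5.93% of the unmarked promoters and 43.4% of all autosomal promoters. TATAAA, a form of the TATA box, was present in 143 (16.1%), 9.70%, 31.2% and 13.1%, respectively. These motifs do not overlap each other in sequence, and a match describes letters only.

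The 56 CpG-rich promoters (ratio over 0.6) included the transcription factor genes Cdx1, Cdx2, Hoxb13, Hmx1, Pax1, Six6 and Dmrt1, picked out after their values were seen. Their median H3K27me3 level was 10.5 RPM in cortex and 9.08 RPM in gastrocnemius, against 7.97 and 7.40 RPM at the 729 CpG-poor promoters. No H3K27ac peak was called in any library at 75% of the CpG-rich and 65.98% of the CpG-poor promoters.

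The mark was broad. The median H3K27me3 peak over these TSSs was 8.6 kb wide in the median cortex library (6.4 to 10.4 kb over libraries) and 9.2 kb in the median gastrocnemius library (5.8 to 24.1 kb, the highest being replicate 5, and the others at most 12.6 kb). At bivalent promoters the corresponding medians were 8.8 and 10.2 kb. Coverage by H3K27me3 peaks was highest just downstream of the TSS, 93.4% of the promoters in cortex and 87.6% in gastrocnemius 0.25 kb downstream, and was still 52.9% and 56.4% at 9.75 kb. Coverage by H3K27ac peaks had a small local maximum there, 10.2% in cortex and 6.10% in gastrocnemius. It was 7.25% in cortex 2.25 kb upstream and 5.06% in gastrocnemius 1.75 kb upstream, and rose again to 12.8% and 10.3% at 9.75 kb downstream. At bivalent promoters H3K27ac covered 84.6% and 68.5% at 0.25 kb.

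**Figure D2:**
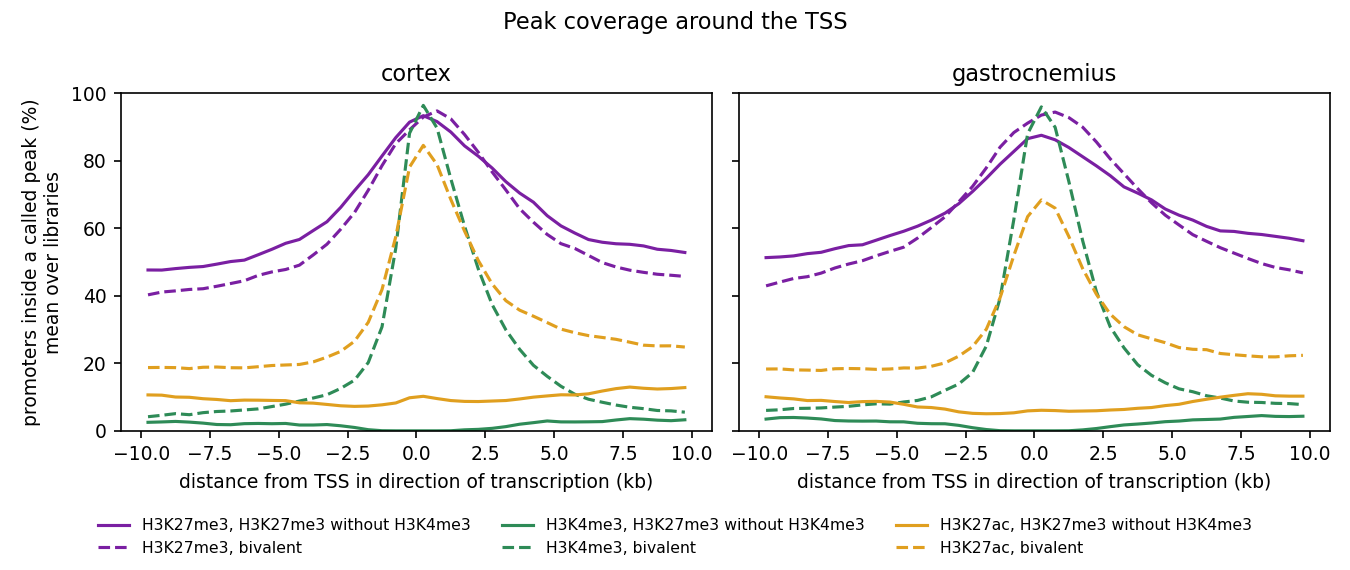
Share of promoters inside a called peak (y axis, %, mean over libraries) by distance from the TSS in the direction of transcription (x axis, kb), for each mark, in cortex (left) and gastrocnemius (right). Solid lines are the 889 promoters with H3K27me3 and no H3K4me3, dashed lines the 1227 bivalent promoters; the H3K4me3 gap at the solid lines' centre follows from the rule, while the solid H3K27ac line runs between 7.25% and 12.97% in cortex and between 5.06% and 11.001% in gastrocnemius.

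The nearest H3K4me3 peak of any library lay a median of 20.02 kb from the TSS (10th percentile 3.39 kb, 90th percentile 83.9 kb). It lay over 10 kb away at 626 promoters (70.4%). For the 3223 unmarked promoters the median distance was 152 kb.  Of the 889 genes, 88 had further annotated TSSs, and 21 of these had an H3K4me3 peak at another TSS in at least 1 library. In 10 genes every library of both tissues had one, among them Igf2 (insulin-like growth factor 2, an imprinted growth factor), Lmo2 (a haematopoietic transcription cofactor), Il16 and Nos2 (inducible nitric oxide synthase). At these genes the upstream start was without H3K4me3 and the gene as a whole was not. At Caln1 and Cnpy1 the other TSS had H3K4me3 in 9 of 9 cortex and 0 of 10 gastrocnemius libraries.

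Protein-coding genes (NM_ records) made up 653 of the 889 (73.5%, against 80.2% of autosomal genes), miRNA genes 49 (5.51% against 4.37%) and other non-coding genes 187 (21.0% against 15.4%). Chromosome 11 had the most (112, 5.78% of its genes) and chromosome 18 the fewest (8, 1.22%). Chromosome 15 had 54 (5.61%) and chromosome 7 had 104 (4.51%). The promoters were often neighbours: 354 (39.8%) lay in runs of at least 2 consecutive genes, and 116 in the 22 runs of at least 4. Bivalent promoters had 32.8% in such runs and a longest run of 4 genes, and unmarked promoters 78.7% and 95 genes. The longest run here, of 10, spanned 2.15 kb. The windows of 64 promoters overlapped that of another of the 889, so their values are not independent.

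The keratins, the filament proteins of epithelia and hair, gave 37 of 107 autosomal genes (34.6%, against 3.56% of all autosomal genes). None of the 107 was bivalent in both tissues and 16 had no mark. The list includes keratin-associated proteins of hair. Many type II keratin genes on chromosome 15 lay in 2 runs of 8 genes, although some, such as Krt7 and Krt78, did not. The first held 5 of them (Krt83, Krt84, Krt82, Krt90 and Krt75) with 3 predicted genes and spanned 117.4 kb (TSSs from 101491512 to 101608874). The second held 8, from Krt6a and Krt5 to Krt1, and spanned 156.5 kb (101694305 to 101850786). Krt32, Krt35, Krt36, Krt13 and Krt15 formed a run of 5 on chromosome 11. H3K27me3 at Krt5, a basal keratinocyte keratin, was 7.80, 9.57 and 10.98 RPM (lowest, median, highest of 9) in cortex and 5.02, 8.21 and 11.4 RPM (of 10) in gastrocnemius. Its tissue ranges overlapped. At Krt1, of the upper epidermal layers, cortex gave 6.40, 8.16 and 8.59 RPM and gastrocnemius 6.20, 9.65 and 14.8 RPM, with a mean difference of -0.40 on the log2 scale (cortex over gastrocnemius) and overlapping ranges. Of the 37 keratin promoters, 33 had no H3K27ac peak in any library.

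Other gene families were also represented. Defensins, antimicrobial peptides, gave 8 of 70 (11.4%), with Defb28, Defb29, Defb21 and Defb19 in a run of 5 on chromosome 2, and 40 of the 70 had no mark in any library. Mast cell tryptases and related serine proteases (Prss34, Prss28, Prss29, Tpsab1, Tpsb2 and Tpsg1) formed a run of 6 on chromosome 17. Claudins and cadherins, junction proteins, gave 5 of 45, among them Cldn4 and Cldn9. Solute carriers gave 19 of 375 (5.07%), including Slc5a1 (the intestinal glucose transporter), with 9.83, 13.8 and 14.8 RPM in cortex and 5.27, 9.47 and 13.7 RPM in gastrocnemius, and Slc46a2. Cytochromes P450 gave 13 of 99 (13.1%), and serpins 2 of 63 (3.17%), a share near that of all genes.

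Olfactory and vomeronasal receptors gave 34 of 1468 (2.32%), below the share of all genes, and 1088 of the 1468 had no mark in any library. The 34 were partly clustered: 8 receptors from Olfr1416 to Olfr12 formed a run on chromosome 1 (92480619 to 92619881). At Olfr1410 H3K27me3 was 8.20, 9.57 and 11.7 RPM in cortex and 4.79, 8.40 and 12.1 RPM in gastrocnemius, and all 19 libraries had a peak.

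Among genes of single organs, 5 of 12 epidermal genes, 6 of 16 liver genes, 4 of 12 intestinal and stomach genes, 3 of 12 kidney and lung genes, 3 of 12 pancreatic and pituitary genes, 3 of 11 lymphoid and myeloid genes and 0 of 10 germ cell genes were included. The liver genes included Fgg (fibrinogen gamma chain), Ahsg (fetuin A), Tat (tyrosine aminotransferase) and G6pc (glucose-6-phosphatase). Ahsg had 9.74, 10.5 and 13.9 RPM in cortex and 4.86, 8.50 and 12.6 RPM in gastrocnemius. Of the T cell receptor complex, Cd3e had 8.29, 8.83 and 11.2 RPM in cortex and 4.66, 6.62 and 8.74 RPM in gastrocnemius, so its ranges overlapped narrowly. Muc2, the main intestinal mucin, had 7.94, 9.32 and 12.5 RPM in cortex and 4.82, 9.08 and 12.7 RPM in gastrocnemius.

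**Figure D3:**
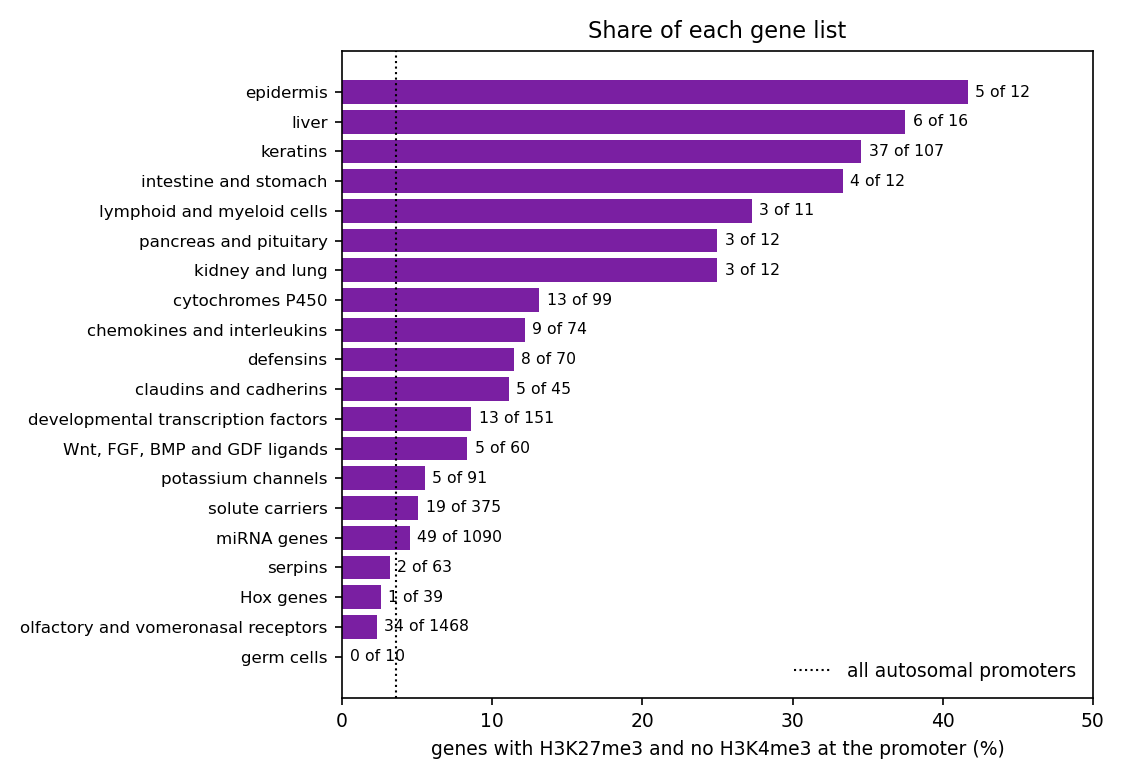
Share of the autosomal genes of each list whose promoter had H3K27me3 and no H3K4me3 (x axis, %), with the number of genes beside each bar; the dotted line is the share over all autosomal promoters (3.56%). Epidermis (5 of 12), liver (6 of 16) and keratins (37 of 107) have the highest shares, and olfactory receptors (34 of 1468) lie below the line. The organ lists, such as epidermis, liver and germ cells (0 of 10), and the Hox genes (1 of 39) are too few to be read closely against it. Krt5, Krt14 and Krt1 are counted in both epidermis and keratins.

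Of 151 developmental transcription factor genes, 13 (8.61%, against 3.56% of all autosomal genes) met the rule. H3K27me3 was in both tissues at 117 of the 151, and 62 were bivalent. Against these 117 the 13 were a smaller share than the 889 were of the 2893 promoters with H3K27me3 in both tissues (30.7%). The 13 included Tbx19, Pax1, Tbx5, Cdx2, Pax4, Foxi1, Hand1, Foxn1, Six6, Nkx2-6 and Cdx1. The 1 Hox gene of 39 was Hoxb13, the most 5′ gene of its cluster, whereas 26 Hox genes had H3K27me3 in both tissues. Of the Wnt, FGF, BMP and GDF ligands, 5 of 60 were included (Bmp8b, Gdf3, Fgf23, Wnt8a and Wnt8b), and 26 were bivalent. Potassium channels gave 5 of 91 and chemokines and interleukins 9 of 74. The genes of the stem cell network Nanog and Pou5f1 were also included, and were picked out after their values were seen: Nanog had a mean of 8.80 ± 1.47 RPM (SD, n = 9) in cortex and 9.91 ± 3.02 RPM (SD, n = 10) in gastrocnemius, and Pou5f1 12.1 ± 2.28 and 9.63 ± 2.27 RPM.

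Over the 19 libraries the 10 highest means were at Mir183, Mir96, Hand1, Hoxb13, Gm53, Mir196a-1, Cdx2, Cldn9, Otx2os1 and E130018O15Rik. Hand1, a bHLH factor of the heart and trophoblast, had 13.7, 16.7 and 20.9 RPM in cortex and 6.44, 12.8 and 19.1 RPM in gastrocnemius. Cdx2, the intestinal homeobox gene, had 12.9, 17.3 and 20.9 RPM in cortex and 6.08, 10.6 and 16.4 RPM in gastrocnemius. At both genes the tissues overlapped, and gastrocnemius replicate 5 was the lowest library. An H3K4me3 peak of some library lay within 2 kb, but outside the window, at 5 of the 10 (Mir183, Mir96, Hand1, Otx2os1 and E130018O15Rik), and Cldn9 had H3K27ac in 9 of 9 cortex and 5 of 10 gastrocnemius libraries. Gm53 and Mir196a-1 in the Hoxb cluster lay in a peak with a median width of 135 kb in cortex and 70.2 kb in gastrocnemius.

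**Figure D4:**
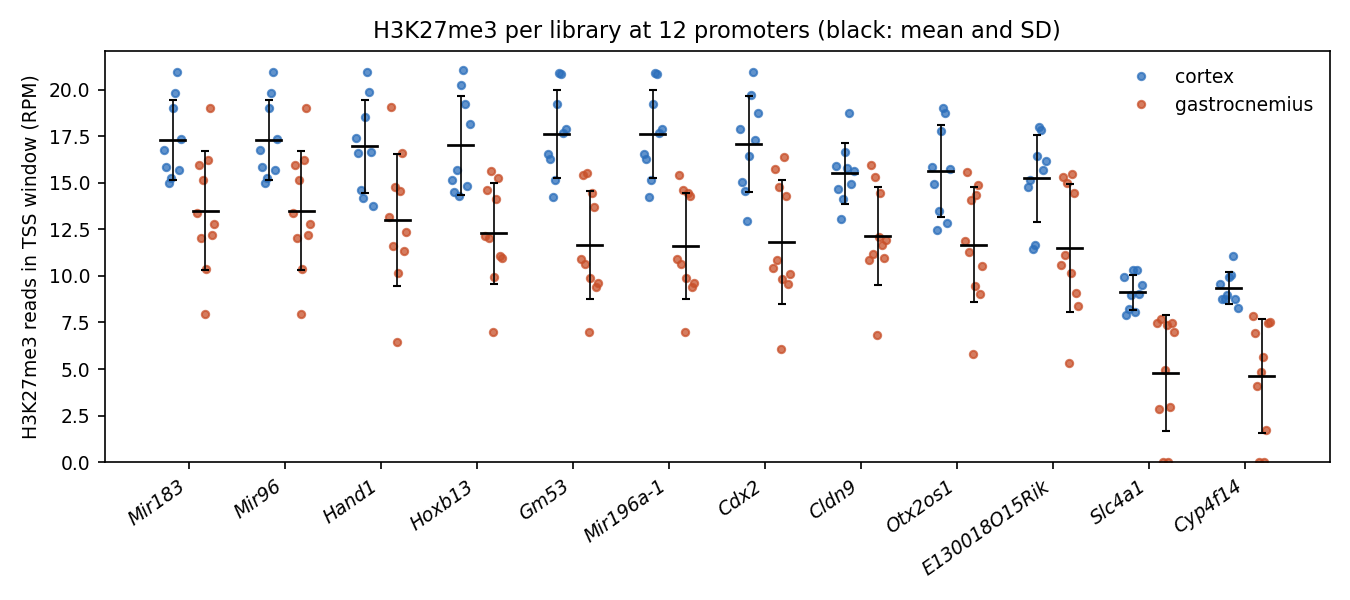
H3K27me3 reads in the TSS window (y axis, RPM) in each of 9 cortex and 10 gastrocnemius libraries at the 10 promoters with the highest mean and at Slc4a1 and Cyp4f14 (x axis); points are libraries, black lines means with SD. The tissues overlap at the first 10 genes and are separate at Slc4a1 and Cyp4f14, which held for reads in autosomal peaks and not when scaled by reads in all peaks.

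Clusters of miRNA genes on chromosomes 6 and 7 carried the mark. Mature sequences are shown because those of the Mir290 cluster share seeds, and because Mir183 and Mir96 had the highest means over the 19 libraries. A miRNA's annotated start is that of its hairpin and not the promoter of its primary transcript, so these windows lie on the transcribed cluster. Of 49 miRNA genes, 47 had a mature sequence in RefSeq. The seed, bases 2 to 8, is in capitals. In the Mir290 cluster on chromosome 7, known for its expression in early embryos and embryonic stem cells, 9 miRNA genes and the host transcript D7Ertd143e formed the longest run (chr7:3218626-3220773). Of the 4 seeds shared within the cluster, those of 3 miRNAs each are shown: AAGUGCU in miR-291a-3p, miR-294-3p and miR-295-3p and CUCAAAC in miR-290a-5p, miR-292a-5p and miR-293-5p.
miR-291a-3p: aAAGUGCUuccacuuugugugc
miR-294-3p: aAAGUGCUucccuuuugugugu
miR-295-3p: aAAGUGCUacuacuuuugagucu
miR-290a-5p: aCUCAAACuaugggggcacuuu
miR-292a-5p: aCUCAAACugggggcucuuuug
miR-293-5p: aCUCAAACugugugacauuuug

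The 10 starts lay within 2.15 kb, and their windows overlapped the same 2.8 kb H3K27me3 domain, so they are 1 locus. At Mir291a H3K27me3 was 7.35, 10.6 and 14.4 RPM in cortex and 4.30, 8.66 and 14.8 RPM in gastrocnemius. At Mir295, at the 3′ end, it was 2.66, 7.35 and 8.64 RPM in cortex and 0.19, 8.11 and 14.8 RPM in gastrocnemius. No H3K27ac peak was called at any of the 10 windows in any library. The nearest H3K4me3 peak was 43.8 kb from Mir290a.

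The Mir183, Mir96 and Mir182 cluster on chromosome 6 is known from sensory organs.
miR-183-5p: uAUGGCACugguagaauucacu
miR-96-5p: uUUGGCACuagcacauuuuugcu
miR-182-5p: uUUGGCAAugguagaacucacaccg

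The 3 seeds were all different. Mir183 and Mir96 lay in the same peak and had nearly equal values: at Mir183 14.98, 16.7 and 20.96 RPM in cortex and 7.96, 13.1 and 18.996 RPM in gastrocnemius. An H3K4me3 peak lay 1.26 kb from Mir183, just outside the window, so its inclusion rests on the window's width. Mir182 had a mean of 14.5 ± 4.67 RPM (SD, n = 9) in cortex and 5.83 ± 4.19 RPM (SD, n = 10) in gastrocnemius.

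H3K27me3 levels were close in the tissues. Per library, the median over the 889 promoters was 7.15 to 9.56 RPM in cortex (median library 8.14) and 4.66 to 10.5 RPM in gastrocnemius (median library 7.70). The lowest was gastrocnemius replicate 5, the deepest, and the 4 gastrocnemius libraries with the fewest reads in peaks (replicates 2, 4, 7 and 8) were the highest of that tissue. The part of depth in this order was not tested. Relative to the bivalent promoters of the same library, the median was 0.87 to 0.95 in cortex and 0.81 to 0.98 in gastrocnemius. The median difference between tissue means was 0.13 on the log2 scale (cortex over gastrocnemius, pseudocount of 0.1 RPM), and 5% to 95% of promoters lay between -0.47 and 0.73. At bivalent promoters it was 0.05. Over the 889 promoters it was 0.041 when scaled by reads in all peaks and 0.055 with TMM factors (described below). It was 0.08 without gastrocnemius replicate 5 and -0.03 when the 6 H3K27me3 libraries were left out whose deposited names carry an S number, which the labels do not explain. The sign of the median thus depended on these libraries, and its size on the scaling.

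Every cortex library was above every gastrocnemius library at 2 of the 889 promoters, and the reverse held at 0. Over all 2893 promoters with H3K27me3 in both tissues the shares were 1.11% and 0.0346%. Within the 9 mice with both tissues, cortex was higher in every mouse at 19 of the 889 promoters and gastrocnemius at 20, against 3.42% and 4.77% of the 2893. Slc4a1, the band 3 anion exchanger of red cells, had 7.88, 9.02 and 10.3 RPM in cortex and 0, 5.96 and 7.71 RPM in gastrocnemius, a difference of 0.92 (log2). Cyp4f14, a fatty acid hydroxylase, had 8.26, 8.97 and 11.1 RPM in cortex and 0, 5.25 and 7.86 RPM in gastrocnemius, a difference of 1.00 (log2). At both, gastrocnemius replicates 4 and 7 had no peak and were set to 0 although reads outside peaks are not in the files. With scaling by reads in all peaks neither gene was separate (0 of 889). The count of 2 became 5 without gastrocnemius replicate 2, 5 without replicate 7 and 4 without replicate 4, and the count of 0 became 1 without replicate 5. With TMM factors, computed on the 2040 promoters called in all 19 libraries, 23 and 15 promoters did not overlap, against 5.15% and 4.63% of the 2893.

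H3K27ac calls were not used by the rule, although the mark competes for the same residue as H3K27me3 and often accompanies H3K4me3. No H3K27ac peak was called in any of 19 libraries at 596 of the 889 promoters (67.0%), against 1.79% of bivalent promoters and 25.6% of all autosomal promoters. At least 8 cortex libraries had one at 51 promoters (5.74%) and at least 8 gastrocnemius libraries at 30 (3.37%), against 81.9% and 65.8% of bivalent promoters. In bulk tissue, marks on the same nucleosomes, on different alleles and in different cells cannot be told apart.

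**Figure D5:**
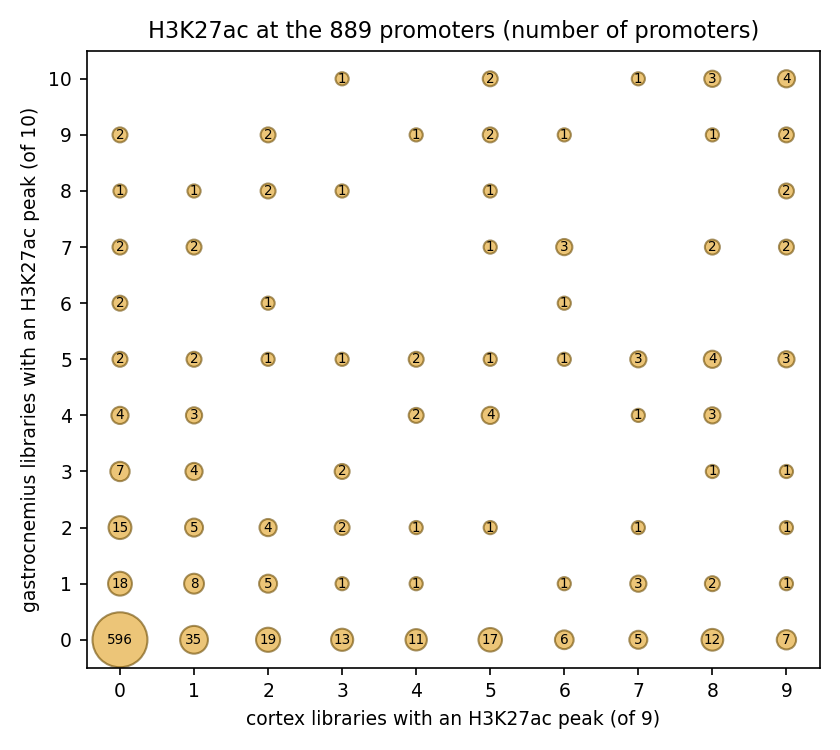
Number of cortex (x axis, of 9) and gastrocnemius (y axis, of 10) libraries with an H3K27ac peak at each of the 889 promoters; the number in each circle counts promoters and its area grows with the square root of that number. Of the 889, 596 sit at the origin, and promoters with a peak in cortex libraries alone reach along the x axis to the 7 with 9 of 9.

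Promoters with H3K27ac in nearly all libraries of both tissues included Ppy (pancreatic polypeptide), Cyp2w1, Cabp2 (a calcium-binding protein of sensory cells), Scgb1c1 (a secretoglobin), Pla2g2e (a secreted phospholipase A2) and Aldh3a1 (an aldehyde dehydrogenase abundant in cornea). The nearest H3K4me3 peak of any library lay 1.785 kb from the Cyp2w1 TSS and 2.12 kb from the Ppy TSS. At the others named here it lay from 6.44 kb (Scgb1c1) to 32.3 kb (Pla2g2e) away. Ppy had an H3K27ac peak in 9 of 9 cortex and 10 of 10 gastrocnemius libraries. Its H3K27me3 level was 9.30, 12.2 and 14.7 RPM in cortex and 5.83, 9.90 and 13.3 RPM in gastrocnemius. At Scgb1c1 the calls were 9 of 9 and 10 of 10, with H3K27me3 of 0, 5.28 and 7.85 RPM in cortex and 0, 8.31 and 11.6 RPM in gastrocnemius.

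The tissues were then compared in how many libraries had an H3K27ac peak, by 2-sided Fisher's exact tests adjusted by the Benjamini-Hochberg method over the 18564 autosomal promoters with a peak in at least 1 library (threshold 0.1). Of the 889 promoters, 293 were tested, and 55 of these (18.8%) were called with more cortex libraries and 11 (3.75%) with more gastrocnemius libraries. Over all tested promoters the shares were 9.28% and 4.29%, and at bivalent promoters 21.6% and 5.15%. With the mouse as a replicate block (exact McNemar test over the 9 mice with both tissues), 21 and 2 of the 293 were called, against 6.26% and 2.34% of all tested promoters.  These shares depend on which promoters count. Testing only promoters with a peak in at least 5 of 19 libraries gave 55 (38.2%) of 144 in cortex and 11 (7.64%) in gastrocnemius. The shares of all promoters so tested were 9.82% and 4.54%. No promoter of the 889 with a peak in fewer libraries was called. Over all promoters, with or without H3K27ac, 6.19% of the H3K4me3-free promoters and 6.90% of all autosomal promoters were called in cortex, and 1.24% and 3.19% in gastrocnemius. With every autosomal promoter tested, 38 (4.27%) of the 889 were called in cortex and 9 (1.01%) in gastrocnemius, against 6.25% and 2.77% of all. The difference between the promoter classes was not tested.

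Of the 55, 7 had H3K27ac in 9 of 9 cortex and 0 of 10 gastrocnemius libraries, at an adjusted p of 0.000187 (Fisher's exact test): Aqp6, D930028M14Rik, Gm6569, Matn1, Pde6b, Prss22 and Stra6, named after their values were seen. Pde6b encodes a rod phosphodiesterase subunit and Matn1 a cartilage matrix protein. The imprinted Dlk1-Dio3 region on chromosome 12 gave 8 of the 55, and 6 of these lay in the same 5.4 kb H3K27me3 domain and are not independent. There Mir337, Mir3544, Mir540, Mir665, Mir3070a, Mir3070b and Rian had H3K27ac in 8 of 9 cortex and 0 of 10 gastrocnemius libraries (adjusted p = 0.00144, Fisher's exact test), and Rtl1 in 7 of 9 and 0 of 10 (adjusted p = 0.00727) by the same test. With the block by mouse the call was kept at the first 7 (adjusted p = 0.0909, exact McNemar test) and lost at Rtl1 (adjusted p = 0.148). At Mir337 H3K27me3 was 6.40, 7.22 and 9.63 RPM in cortex and 3.72, 7.71 and 12.5 RPM in gastrocnemius, with overlap.

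In gastrocnemius Cyp26b1, which degrades retinoic acid, had H3K27ac in 9 of 10 libraries and in 0 of 9 cortex libraries (adjusted p = 0.00144, Fisher's exact test). The nearest H3K4me3 peak of any library lay 1.51 kb from the Cyp26b1 TSS. H3K27me3 at Cyp26b1 was 6.57, 11.1 and 14.1 RPM in cortex and 1.66, 6.88 and 13.7 RPM in gastrocnemius. With a window of 3 kb its H3K27ac call was lost (adjusted p = 0.496). Krt7, a keratin of simple epithelia, had H3K27ac in 8 of 10 gastrocnemius and 1 of 9 cortex libraries (adjusted p = 0.0452, Fisher's exact test), and lost the call in 19 of 26 alternatives, including the replicate block by mouse.

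The H3K27me3 levels of these promoters were set beside their H3K27ac calls. At the 55 promoters with more cortex calls the median log2 difference in H3K27me3 (cortex over gastrocnemius) was -0.16, with 19 of 55 above 0. At the 11 with more gastrocnemius calls it was 0.28, with 10 of 11 above 0. At the 596 without H3K27ac it was 0.15, with 423 above 0. These values describe promoters that share libraries, and the difference between the groups was not tested. Gm6569 and Gm6249 had the largest differences of these called promoters in each direction and were picked for them. At Gm6569 the H3K27me3 means were 3.15 ± 2.69 RPM (SD, n = 9) in cortex and 8.86 ± 2.24 RPM (SD, n = 10) in gastrocnemius, and at Gm6249, called in gastrocnemius (9 of 10 against 0 of 9), 7.66 ± 1.13 and 2.96 ± 3.05 RPM. The 1 of the 11 below 0 was 9230020A06Rik, at -0.23.

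Many calls lay near the threshold. Of the 55, 17 had a peak in 5 of 9 cortex and 0 of 10 gastrocnemius libraries, at an adjusted p of 0.0799 (Fisher's exact test). Leaving out any 1 of gastrocnemius H3K27ac replicates 2 to 10 gave 35 or 36 cortex calls, and leaving out cortex replicate 6 or gastrocnemius replicates 1, 3, 4, 5, 6, 7 or 9 gave 6 or 7 gastrocnemius calls. Among libraries without an S number, 31 (11.3% of those tested) and 4 (1.46%) were called, against 8.15% and 2.82% of all tested promoters. With equally many peaks per library 36 (15.8%) and 11 (4.82%) were called, against 8.72% and 5.66%. Without the shallow cortex replicate 9 the counts were 58 (19.8%) and 10 (3.41%), against 9.38% and 3.86%.

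The rule's thresholds passed through a continuous range. Of the 889, 477 had H3K27me3 in all 19 libraries, 225 missed 1, 154 missed 2 and 33 missed 3. Just inside, Smok2a, Lcn6 and Nr0b2 had a peak in 8 of 9 cortex and 8 of 10 gastrocnemius libraries, with mean levels of 11.05, 7.23 and 8.40 RPM in cortex and 7.88, 7.18 and 5.98 RPM in gastrocnemius. Just outside, Nr5a1, the steroidogenic factor gene, had one in 9 of 9 and 7 of 10 libraries (12.003 and 6.77 RPM), as did AY702103 (11.3 and 4.64 RPM). Hmx2 had H3K27me3 in all 19 libraries (16.6 and 12.6 RPM) and H3K4me3 in 1 gastrocnemius library. In all, 53 promoters with H3K27me3 in both tissues had H3K4me3 in 1 of 19 libraries only, and 75 and 117 without H3K4me3 were 1 library short in cortex or gastrocnemius.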

How the data were processed

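Peaks were those deposited for each of 57 libraries. Per the study's methods and the submitters' processing notes, BWA (genome build mm10) and SAMtools were used upstream, and the authors called peaks in each library with epic2 (version: not given in the sources used here). The count of each deposited peak is the whole number of reads the authors' epic2 run found in it, not normalized, and the deposited score is the epic2 score, used here only to rank peaks. Reads outside peaks were not analysed here, so a library without a peak was set to 0.

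Groups were mark and tissue, from the labels. Genes were RefSeq NM_ and NR_ records on GRCm38.p6. RPM is the share of peak reads, apportioned by overlap, that fell within 1 kb of the TSS, per 1000000 reads in autosomal peaks. Peak files start coordinates from 0 and were converted. H3K27me3 domains shared by the libraries were stretches inside peaks in at least 8 of 9 and 8 of 10 libraries, with short gaps joined. H3K27ac calls were tested by Fisher's exact test, or by the exact McNemar test within mice as an alternative, with Benjamini-Hochberg adjustment, and single libraries were compared by Dixon's criterion; the code was tested on simulated data. Tissues of 9 mice were paired by the animal identifier in the deposited names; the deviations of paired H3K27me3 libraries correlated between -0.04 and 0.06. Python 3.11.15, NumPy 2.4.6, SciPy 1.17.1, pandas 2.3.3, R 4.3.3 and edgeR 4.0.16 (TMM factors) were used.

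Genes named were the 10 with the highest mean H3K27me3, those whose tissues did not overlap (up to 6 each way), up to 8 with H3K27ac in most libraries, up to 3 per list, members of the 3 domains with most of the promoters, and 3 genes on each side of the thresholds. The members, lists and tests were chosen with earlier results of these data known. Libraries of 1 tissue came from separate mice. P-values cover the spread between these libraries only.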

Additional observations from a re-analysis of the deposited data

Results flagged for a closer look

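Values of 1 library were compared with the other libraries of its mark and tissue, over 194 sets of values, by the gap to the nearest library divided by the range (Dixon's criterion). Chance alone marks about 1 set in 20, and 14 were marked. Cortex H3K27ac replicate 9 had 3.94 M reads (units of 1000000) in peaks and an H3K27ac peak at 39 of the 889 promoters, the fewest of its group. Gastrocnemius H3K27ac replicate 9 had 68046 peaks, and replicate 6 had 27.3 M reads in peaks. Gastrocnemius H3K27me3 replicate 5 had 18.2 M reads in peaks and a median peak width of 24.1 kb at these promoters.

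Of single promoters, H3K27me3 in cortex was high in replicate 6 at Defb21 (11.2 RPM), Olfr222 (14.2 RPM) and Ahsg (13.9 RPM) and in replicate 7 at Aqp2 (15.99 RPM). It was 0 RPM, for want of a peak, in cortex replicate 7 at Cpa1, cortex replicate 5 at Serpina11 and gastrocnemius replicate 4 at Bmp8b. At Cabp2 gastrocnemius replicate 8 had 0.516 RPM.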

How the results depend on the processing

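The number of promoters was 889 and ranged from 713 to 1096 under the other windows, overlaps, peak filters and TSS rules, and was 477 when every library had to have H3K27me3; leaving out 1 library gave 889 to 957, with the number of libraries allowed to lack H3K27me3 kept, so that no promoter could be lost. H3K27ac calls among them (55 and 11, cortex and gastrocnemius) ranged from 35 to 58 and from 6 to 13 when 1 library was left out. With equally many peaks per library 36 were called in cortex; a 3 kb window gave 20 in gastrocnemius, and dropping the 25% lowest-scoring peaks gave 6. With the replicate block by mouse 21 and 2 were called, with 434 of all promoters in gastrocnemius (796 without the block), and the median H3K27me3 difference was 0.18. Libraries without an S number, which are fewer, gave 31, 4 and 518. Promoters with non-overlapping tissues (2 and 0) were 0 in cortex with reads of all peaks, 23 and 15 with TMM factors, 7 in cortex with 3 kb windows, 4 and 15 without S-number libraries, and 2 to 5 and 0 to 1 when 1 library was left out. Joining peaks less than 2 kb apart raised the median width to 15.8 kb in cortex and 19.4 kb in gastrocnemius. Apart from the last, the cause was not tested. The CpG ratio stayed at 0.22 in the 2 kb window.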
